A study of Homo sapiens with 4 samples.

Results

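The genes described here are 49 cytosolic translation factors of the human myeloma cell line RPMI 8226. They encode initiation, elongation and termination factors, poly(A)-binding proteins and the 4E-binding proteins. They were chosen by gene symbol, while earlier results on these data were known. All 49 symbols were found among the 78932 Ensembl genes of the count table. Of the 49, 48 passed the filter on low counts, and EEF1G did not. RNA was sequenced from cells that received an antisense oligonucleotide built with locked nucleic acid (LNA ASO, modified to pair tightly with a chosen RNA) against CELF2, an RNA-binding protein that acts on splicing and mRNA stability. The CELF2 ASO was given at 5 nM, and cells with a control LNA ASO, whose dose the sample labels do not give, were its comparison. RNA was taken after 72 hours. Each group had 2 libraries from this single cell line, and the cells of both groups had been transfected with an LNA ASO.

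Translation of most cellular mRNAs begins when eIF4F binds the 5′ cap, through the cap-binding protein eIF4E, the scaffold eIF4G and the helicase eIF4A. The small ribosomal subunit, carrying eIF3, eIF1, eIF1A, eIF5 and eIF2 with the initiator tRNA, is then recruited and scans to the start codon. eIF2 leaves in its GDP form and is recharged by the exchange factor eIF2B, the step that the integrated stress response blocks. Elongation is carried by eEF1A, its exchange factor eEF1B and eEF2, and termination by eRF1 and eRF3. Plasma cells and myeloma cells secrete or synthesise large amounts of immunoglobulin and depend on this machinery. Many elongation factor and some initiation factor mRNAs begin with a 5′ terminal oligopyrimidine tract (TOP), a C followed by a run of pyrimidines, which couples their translation to the kinase complex mTORC1.

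Total counts per library were between 23599190 and 29161298. CELF2, the ASO target, had 56.6 and 48.8 CPM with the CELF2 ASO, against 128.0 and 127.9 CPM in the control ASO libraries. CPM are counts per 1000000 of a library size adjusted by TMM, a scaling that centres most genes between libraries. CELF2 was therefore lower in both CELF2 ASO libraries, with a log2 fold change of -1.28 ± 0.09 (standard error, edgeR adjusted p = 3.74e-05). All 8 plasma cell markers examined were present at 33.4 CPM or more in every library, and summed to 3281 to 3831 CPM with the CELF2 ASO and 3147 to 3357 CPM with the control. Of these 8, CD38 and IRF4 were called higher, SDC1, TNFRSF17, PRDM1 and MZB1 lower, and XBP1 and JCHAIN were not called. The 4 markers of T and NK cells summed to at most 0.67 CPM. The 4 myeloid markers summed to 2.34 to 2.68 CPM with the CELF2 ASO and 3.41 to 3.43 CPM with the control, with LYZ and FCGR3A at 0. The summed level of 4 stromal and epithelial markers, mostly EPCAM, was 39.4 to 45.2 CPM with the CELF2 ASO and 67.0 to 69.1 CPM with the control. Within that list EPCAM was lower and KRT8 higher (log2 fold changes of -0.89 and 1.36, edgeR adjusted p = 0.000504 and 0.000724), and the part of these markers in the results was not tested. In bulk RNA of this kind, fewer cells of a type and less RNA per cell cannot be told apart. The stress transcription factor genes ATF4 and DDIT3 and the asparagine synthetase gene ASNS were higher with the CELF2 ASO, with log2 fold changes of 2.26, 4.67 and 2.50 (edgeR adjusted p = 5.48e-06, 1.03e-05 and 4.03e-05). Whether the number in each label stands for a repeat of the experiment or for another oligonucleotide is not stated, nor are separate cultures mentioned. The p-values therefore measure the spread between these libraries only, which may be technical.

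Most translation factor mRNAs differed between the groups, and more were lower than higher with the CELF2 ASO. Of 48 tested genes, 43 passed an edgeR adjusted p of 0.05, 14 higher and 29 lower. This is 89.6% of the factors, while 55.6% of all 19511 tested genes passed. By direction, 29.2% of the factors were higher, against 27.6% of all tested genes, and 60.4% were lower, against 28.0% of all tested genes. Among the 6790 genes with a mean of at least 20 CPM, a level that 47 of the factors reach, 72.5% passed, 24.5% higher and 48.0% lower. The median log2 fold change was -0.42 for the factors, -0.22 for the genes of at least 20 CPM and 0.04 for all tested genes. Of the 48 factors, 7 were called with a fall of at least 2-fold and 1 with a rise of at least 2-fold. Among the 6790 genes of at least 20 CPM, 981 fell and 373 rose that far, and among all 19511 tested genes 2179 fell and 2831 rose. The share of factors that fell that far was near that of the genes of at least 20 CPM. Every CELF2 ASO value lay outside the control values for 47 of 48 factors, for 6005 of the 6790 genes of at least 20 CPM and for 79.6% of all tested genes. The number of higher factors was 8 without control_LNA_ASO replicate 1 and 9 without control_LNA_ASO replicate 2, fits that take their spread from the CELF2 ASO pair alone.

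**Figure D1:**
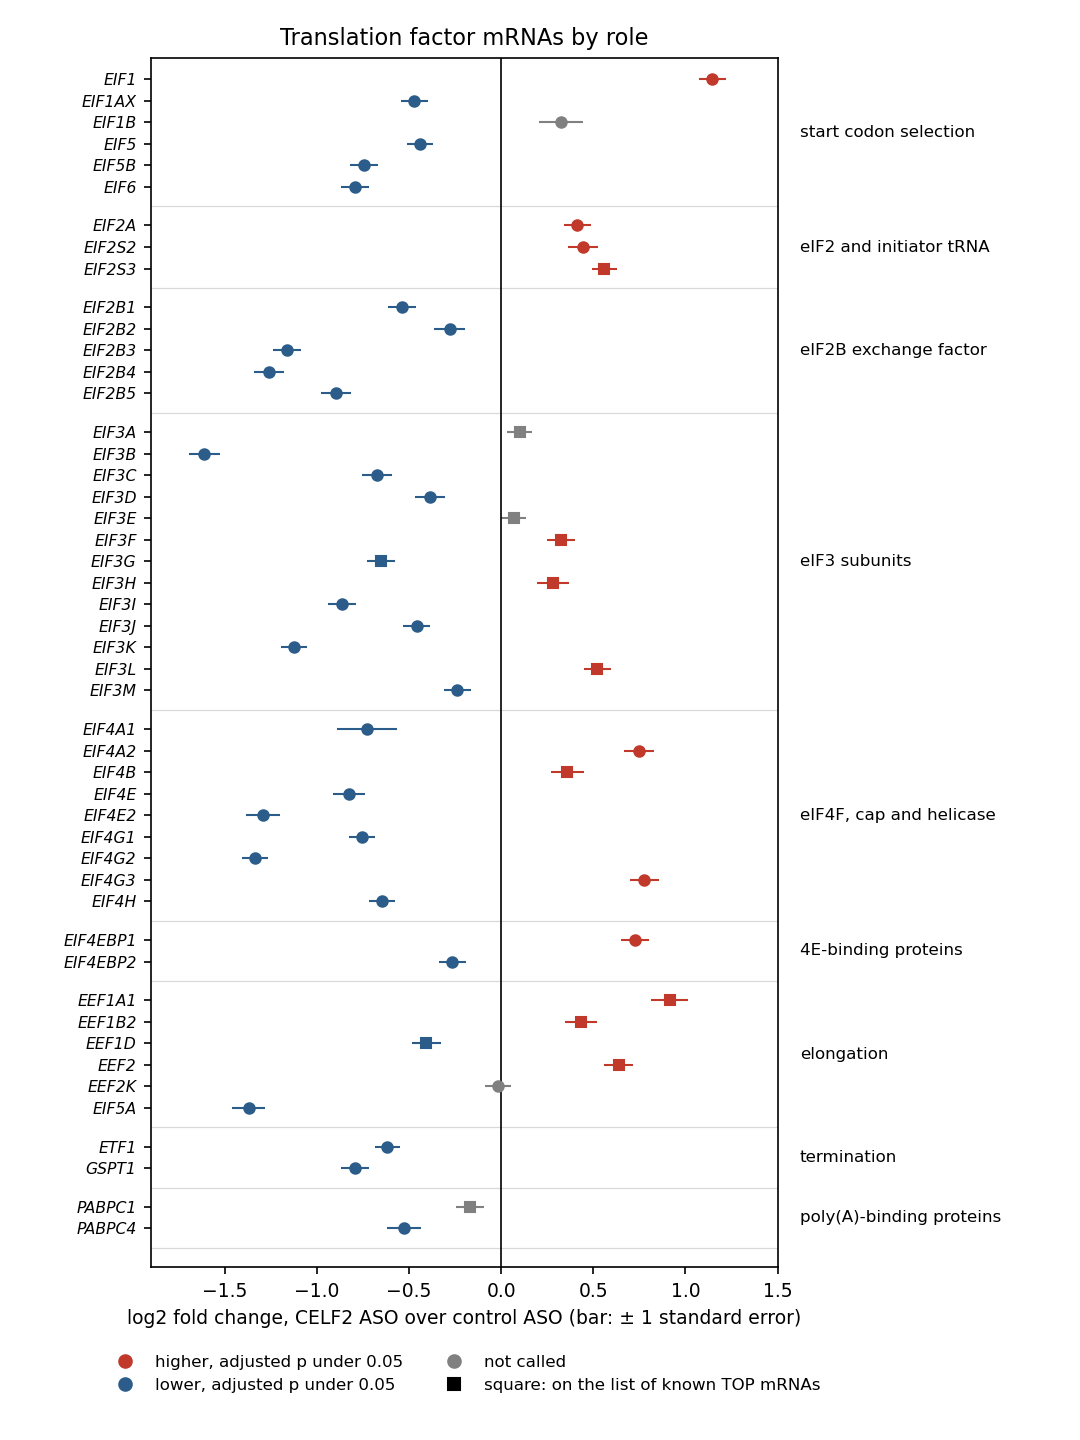
Log2 fold change of each tested translation factor mRNA, CELF2 ASO over control ASO, with bars of 1 standard error, in groups by role. Red marks the 14 genes called higher, blue the 29 called lower and grey the 5 not called, and squares mark known TOP mRNAs.

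The spread was wider in the CELF2 ASO pair. The coefficient of variation between the libraries of a group had a median of 4.51% over the 48 factors in the CELF2 ASO pair and 1.76% in the control pair. Its highest value was 13.6% for EIF1B in the CELF2 ASO pair and 5.86% for EIF5B in the control pair. EEF2K, the kinase that inhibits eEF2, was the factor whose groups overlapped, with 149 and 142 CPM with the CELF2 ASO and 148 and 146 CPM with the control.

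**Figure D2:**
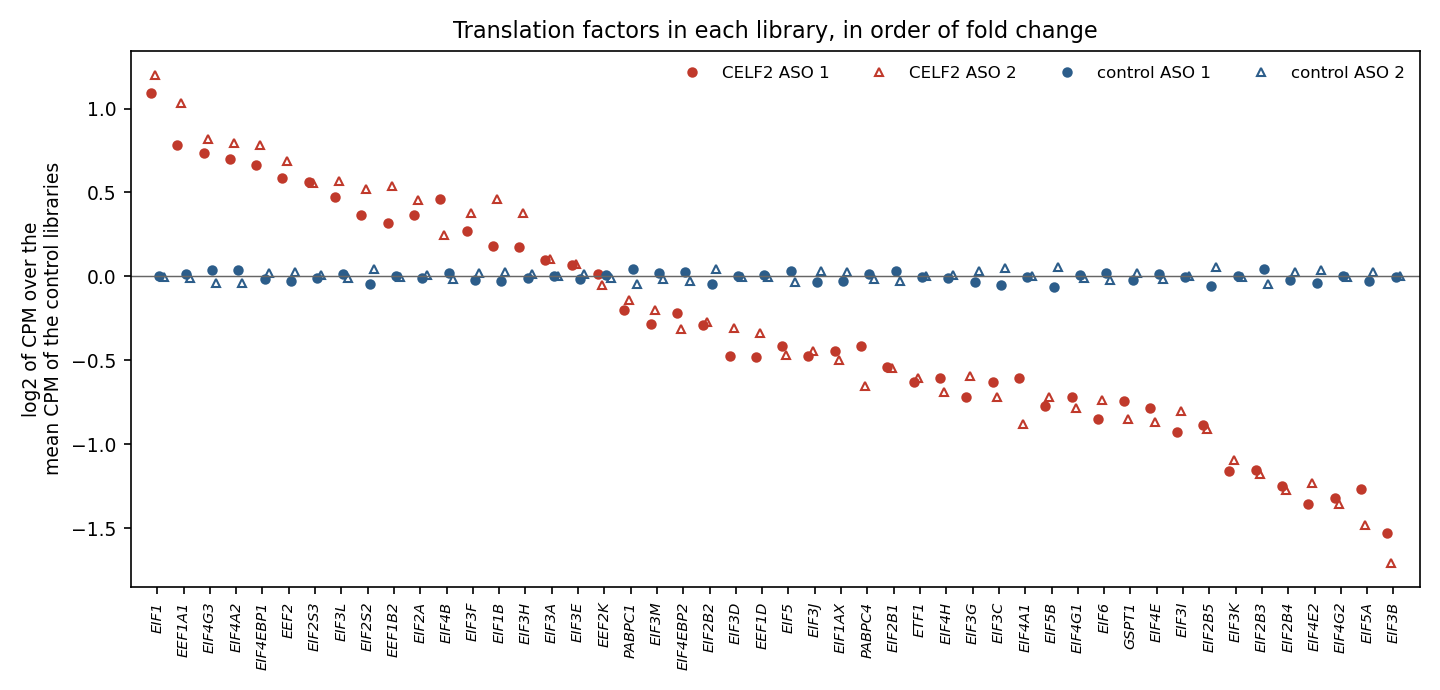
Log2 of CPM over the control mean for every tested translation factor in each of the 4 libraries, in order of fold change. The control libraries lie close to 0, and the CELF2 ASO libraries run from EIF1, the highest, to EIF3B, the lowest.

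Of 6 genes for start codon selection and subunit joining, 1 rose, 4 fell and 1 was not called. EIF1, whose protein guards the accuracy of start codon choice, had 571 and 615 CPM with the CELF2 ASO, against 268 and 268 CPM with the control. Both CELF2 ASO libraries lay at more than 2-fold the control level, with a log2 difference (log2 fold change) of 1.15 ± 0.07 (edgeR adjusted p = 2.54e-05), the largest rise of the 48 factors. Its close relative EIF1B had 22.8 and 27.6 CPM with the CELF2 ASO and 19.8 and 20.5 CPM with the control, without overlap. EIF1B lay just outside the threshold (log2 fold change 0.33 ± 0.12, edgeR adjusted p = 0.0501) and crossed it under 4 of 11 alternatives (adjusted p from 2.61e-06 to 0.3).

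The 4 genes of this group that fell were EIF1AX, EIF5, EIF5B and EIF6. EIF1AX, which encodes eIF1A, fell by 0.47 on the log2 scale, and EIF5, whose protein makes eIF2 hydrolyse GTP at the start codon, fell by 0.44. EIF5B, the GTPase of subunit joining, had 133 and 138 CPM with the CELF2 ASO against 217 and 236 CPM with the control. EIF6, which keeps the large subunit from joining too early, had 76.2 and 82.3 CPM against 139 and 135 CPM. Neither gene's groups overlapped, with log2 fold changes of -0.74 ± 0.08 and -0.79 ± 0.08 (edgeR adjusted p = 0.000177 and 0.000131).

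All 3 genes of the eIF2 group rose, while the eIF2B subunit genes fell. EIF2S3, which encodes the GTP-binding gamma subunit of eIF2, had 605 and 602 CPM with the CELF2 ASO, against 407 and 412 CPM with the control. EIF2S2, the beta subunit, had 155 and 173 CPM with the CELF2 ASO and 117 and 124 CPM with the control. Both rose, by 0.56 ± 0.07 and 0.44 ± 0.08 on the log2 scale (edgeR adjusted p = 0.000385 and 0.0031). EIF2A, a separate protein able to deliver initiator tRNA and not a subunit of eIF2, rose by 0.41 ± 0.07 (edgeR adjusted p = 0.00235). The EIF2S2 call was lost without control_LNA_ASO replicate 1 (adjusted p from 2.59e-18 to 0.0901 over 11 alternatives), and that of EIF2A without either control library (from 2.15e-14 to 0.08). The alpha subunit gene EIF2S1, whose protein carries the stress phosphorylation site, is not among the 49 and was looked up after the others were seen. It had 82.4 and 96.8 CPM with the CELF2 ASO and 159 and 165 CPM with the control, so it lay on the other side, with a log2 difference of -0.85 ± 0.09 (edgeR adjusted p = 0.000234).

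All 5 subunit genes of eIF2B fell. EIF2B4, a regulatory subunit, had 28.4 and 27.9 CPM with the CELF2 ASO, against 66.3 and 68.5 CPM with the control. EIF2B3, part of the catalytic arm, had 51.6 and 50.9 CPM against 118 and 111 CPM, and the catalytic subunit gene EIF2B5 had 46.5 and 45.8 CPM against 82.6 and 89.4 CPM. These 3 genes were lower in both CELF2 ASO libraries by 1.26 ± 0.08, 1.17 ± 0.08 and 0.90 ± 0.08 on the log2 scale (log2 fold changes of -1.26, -1.17 and -0.90, edgeR adjusted p = 2.43e-05, 2.65e-05 and 9.23e-05). The regulatory subunit genes EIF2B1 and EIF2B2 had log2 fold changes of -0.54 and -0.28. EIF2B2 lost its call under 4 of 11 alternatives, with library totals alone, with DESeq2 and without either control library (adjusted p from 0.000201 to 0.25). Together the 5 genes held 0.0224% and 0.0212% of all counts in the CELF2 ASO libraries and 0.0366% and 0.0367% in the control libraries.

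Of the 13 eIF3 subunit genes, 3 rose, 8 fell and 2 were not called. eIF3 is built on a core of 8 subunits (a, c, e, f, h, k, l and m), to which the b, g and i subunits attach as a module, with d and the loosely bound j at the edge. All 3 genes of the b, g and i module fell, while of the 8 core genes 3 rose, 3 fell and 2 were not called. Averaged over the module on a scale of CPM per kilobase of principal transcript, b, g and i stood at 146 and 153 in the CELF2 ASO libraries, against 291 and 297 in the control libraries. The core averaged 88.8 and 93.1 per kilobase in the CELF2 ASO libraries and 94.7 and 95.4 in the control libraries. With TMM scaling both averages were lower with the CELF2 ASO and did not overlap between the groups. The order of the core depends on that scaling and is reversed with library totals alone, while the module stays lower. The median log2 fold change of the 8 core genes was 0.08, so the lower core average is not a fall of the core as a set. The averages are given as a description, and the length of a single transcript per gene is only an approximation of what was counted.

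EIF3B, the scaffold of that module, had the largest fall of all 48 factors. It had 294 and 260 CPM with the CELF2 ASO, against 844 and 849 CPM with the control. Both CELF2 ASO libraries were more than 2-fold below both control libraries, with a log2 difference of -1.61 ± 0.08 (edgeR adjusted p = 1.29e-05). Its partners EIF3I and EIF3G had log2 fold changes of -0.86 ± 0.08 and -0.65 ± 0.08 (edgeR adjusted p = 8.59e-05 and 0.000334). EIF3D, which can bind the cap of selected mRNAs, and EIF3J had log2 fold changes of -0.39 and -0.46. The EIF3D call was lost without either control library (adjusted p from 2.12e-22 to 0.0587 over 11 alternatives).

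Within the core, EIF3K fell most and EIF3L rose most. EIF3K had 83.8 and 87.6 CPM with the CELF2 ASO, against 187 and 186 CPM with the control. EIF3L, whose protein pairs with that of EIF3K in the complex, had 311 and 333 CPM against 226 and 223 CPM. The log2 fold changes of these partners were -1.12 ± 0.07 and 0.52 ± 0.07 (edgeR adjusted p = 2.43e-05 and 0.000739), so 1 was lower and the other higher in both CELF2 ASO libraries. A share of 41.1% of the annotated exon bases of EIF3L lies inside another gene of the same strand, AL022311.1, which held 523 counts over the 4 libraries, so the EIF3L level is less certain. EIF3F and EIF3H rose by 0.33 and 0.28, calls lost without either control library and, for EIF3H, also with no filter and with DESeq2 (adjusted p up to 0.193 and 0.269, and down to 4.17e-11 and 9.42e-13). EIF3A, the largest subunit, and EIF3E had log2 fold changes of 0.10 and 0.07 and were not called (edgeR adjusted p = 0.238 and 0.418), although EIF3A passed with library totals alone and without CELF2_LNA_ASO replicate 1 (adjusted p from 0.0257 to 0.753). The fall of EIF3M by 0.24 (edgeR adjusted p = 0.0258) did not pass under 6 of 11 alternatives (adjusted p from 9.93e-07 to 0.222).

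EIF3C fell by 0.68 on the log2 scale (edgeR adjusted p = 0.000425), but it has a near-identical copy, EIF3CL. EIF3C had 45.9 and 43.1 CPM with the CELF2 ASO, against 68.5 and 73.6 CPM with the control. EIF3CL had 41.3 and 38.4 CPM against 64.4 and 64.2 CPM, so the reads are spread over both genes and the level of either is uncertain. With the counts of the pair summed, a choice made after the data were seen, the log2 fold change was -0.68.

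**Figure D3:**
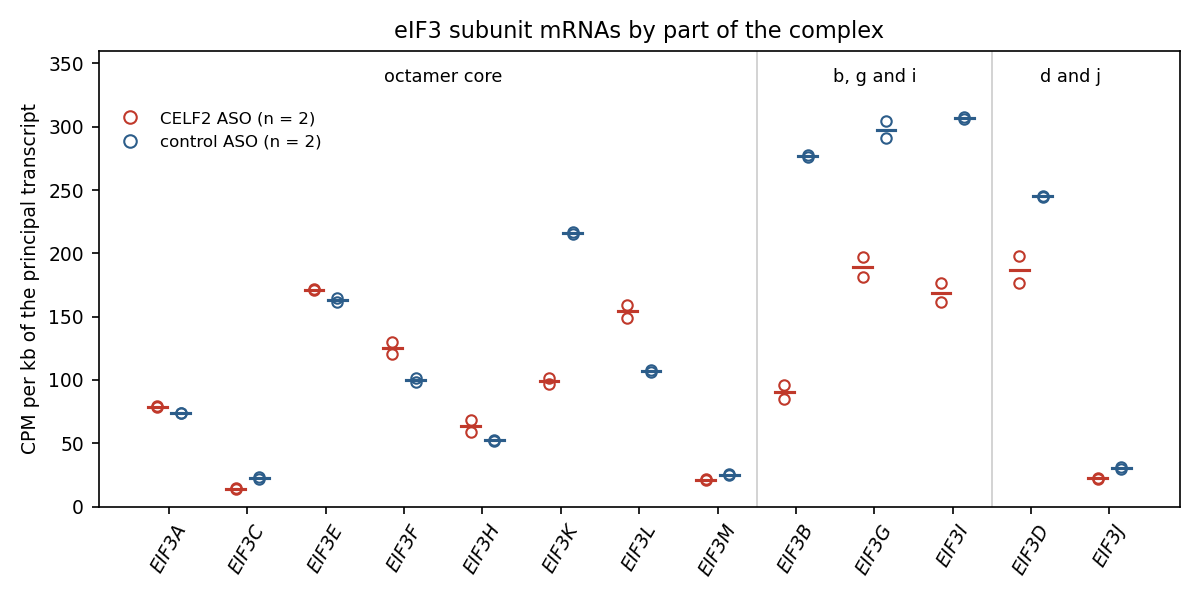
CPM per kilobase of principal transcript of the 13 eIF3 subunit mRNAs, with a point per library and a line at the mean of each pair. The b, g and i subunits lie lower with the CELF2 ASO than with the control, while the core subunits lie on either side.

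Of 9 genes of the cap-binding complex eIF4F and its helicase cofactors, 3 rose and 6 fell, and the main scaffold gene fell while its relative rose. EIF4G1, the main scaffold, had 1095 and 1046 CPM with the CELF2 ASO, against 1818 and 1792 CPM with the control. EIF4G3, a second scaffold, had 114 and 121 CPM against 70.3 and 66.5 CPM. The log2 fold changes were -0.75 ± 0.07 and 0.78 ± 0.08 (edgeR adjusted p = 0.000118 and 0.000152), in opposite directions and without overlap of the groups. EIF4G2, also called DAP5, which lacks the part that binds eIF4E and supports cap-independent initiation, had 320 and 312 CPM with the CELF2 ASO and 800 and 799 CPM with the control. It fell in both CELF2 ASO libraries by 1.34 on the log2 scale (edgeR adjusted p = 1.28e-05).

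Both cap-binding protein genes fell. EIF4E2, whose protein 4EHP binds the cap without eIF4G and represses translation, had 21.0 and 22.9 CPM with the CELF2 ASO, against 52.3 and 55.1 CPM with the control. EIF4E, the canonical cap-binding protein gene, had 27.3 and 25.7 CPM against 47.5 and 46.5 CPM. Neither gene's groups overlapped, with log2 fold changes of -1.29 ± 0.09 and -0.83 ± 0.09 (edgeR adjusted p = 3.58e-05 and 0.000183). The mRNAs of the proteins that hold eIF4E away from eIF4G changed in opposite directions. EIF4EBP1, a known target of both mTORC1 at the protein level and ATF4 at the gene level, had 194 and 211 CPM with the CELF2 ASO, against 121 and 124 CPM with the control. EIF4EBP2 had 156 and 146 CPM against 185 and 178 CPM. EIF4EBP1 was higher in both CELF2 ASO libraries (log2 fold change 0.72 ± 0.08, edgeR adjusted p = 0.000195). EIF4EBP2 was lower (-0.27 ± 0.07, edgeR adjusted p = 0.0176), which did not pass on library totals alone or without either control library (adjusted p from 9.86e-08 to 0.19).

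The helicase genes also differed from one another. EIF4A2 had 80.7 and 86.4 CPM with the CELF2 ASO, against 51.2 and 48.4 CPM with the control, and its log2 fold change was 0.75 ± 0.08 (edgeR adjusted p = 0.000227). EIF4A1 had only 4.25 and 3.52 CPM against 6.47 and 6.48 CPM, and its log2 fold change was -0.73 ± 0.16 (edgeR adjusted p = 0.00708). The EIF4A1 level and direction are uncertain, since 29.8% of its annotated exon bases lie inside the readthrough gene SENP3-EIF4A1 and 41.1% inside AC016876.2, on the same strand. Those genes held 12 and 21 counts over all 4 libraries. The sources used here do not state how reads shared by such genes were counted. Of the helicase cofactors, EIF4H fell by 0.65 (edgeR adjusted p = 0.000237) and EIF4B rose by 0.36 (edgeR adjusted p = 0.0107). EIF4B had 829 and 714 CPM with the CELF2 ASO, against 609 and 594 CPM with the control, and its call was lost without either control library (adjusted p from 1.86e-21 to 0.164).

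Of 6 tested elongation genes 3 rose, 2 fell and 1 was not called. EEF1A1, which brings aminoacyl-tRNA to the ribosome, had 21481 and 25546 CPM with the CELF2 ASO, against 12575 and 12375 CPM with the control. EEF2, the translocase, had 9344 and 10044 CPM against 6117 and 6336 CPM. Both rose in both CELF2 ASO libraries, by 0.91 ± 0.10 and 0.64 ± 0.08 on the log2 scale (edgeR adjusted p = 0.000238 and 0.000424). EEF1A1 alone held 2.29% and 2.59% of all counts with the CELF2 ASO and 1.21% and 1.19% with the control. The 49 genes together held 4.54% and 4.81% with the CELF2 ASO and 3.22% and 3.21% with the control. Without EEF1A1 and EEF2 the order was the other way round, 1.25% and 1.20% with the CELF2 ASO against 1.42% and 1.42% with the control. On the per-kilobase scale EEF1A1 stood at 10210 and EEF2 at 3064 in the mean of the CELF2 ASO libraries, and at 5417 and 1968 in the control libraries. EEF1A1 has many processed pseudogenes, so its counts depend on how reads with several matches were treated.

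The subunits of the exchange factor eEF1B did not move together. EEF1B2, the catalytic alpha subunit, had 729 and 848 CPM with the CELF2 ASO, against 586 and 582 CPM with the control, and rose by 0.43 ± 0.09 (edgeR adjusted p = 0.00466). That call was lost without either control library (adjusted p from 8.01e-28 to 0.0797). EEF1D, the delta subunit, had 106 and 118 CPM against 149 and 148 CPM, and fell by 0.41 (edgeR adjusted p = 0.00365). EEF1G, the gamma subunit, was listed at 0 in all 4 libraries and could not be compared. Of its annotated exon bases, 99.9% lie inside AP002990.1, a gene of the same strand that was also listed at 0. EIF5A, the hypusine-bearing factor that relieves stalled ribosomes, had 440 and 379 CPM with the CELF2 ASO, against 1039 and 1080 CPM with the control. It was the second-largest fall of the 48, lower in both CELF2 ASO libraries by 1.37 on the log2 scale (edgeR adjusted p = 2.78e-05). For EEF2K the log2 fold change was -0.02, and it was not called (edgeR adjusted p = 0.858).

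Both termination factor genes fell. GSPT1, which encodes eRF3a, had 254 and 235 CPM with the CELF2 ASO, against 418 and 430 CPM with the control. ETF1, which encodes eRF1, had 154 and 157 CPM against 238 and 239 CPM. The falls of 0.79 and 0.62 on the log2 scale were larger than the spread within either pair (edgeR adjusted p = 0.000113 and 0.000245). Of the poly(A)-binding proteins, which join the mRNA's tail to eIF4G, PABPC4 had 337 and 285 CPM with the CELF2 ASO and 454 and 445 CPM with the control, and it fell by 0.53 (edgeR adjusted p = 0.00224). PABPC1 had 1470 and 1530 CPM against 1738 and 1636 CPM and was not called (log2 fold change -0.17 ± 0.07, edgeR adjusted p = 0.0862), and it passed under 3 of 11 alternatives (adjusted p from 4.98e-07 to 0.53).

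Ratios of related genes within a library need no scaling between libraries, and their group means differed by up to 2.89-fold. The log2 ratio of EIF4G1 to EIF4G3 was 3.27 and 3.11 in the CELF2 ASO libraries, against 4.69 and 4.75 in the control libraries. That of EIF4EBP1 to EIF4EBP2 was 0.32 and 0.53 against -0.61 and -0.52, so the 4E-binding protein gene with more counts was EIF4EBP1 with the CELF2 ASO and EIF4EBP2 with the control. The log2 ratio of EIF4A1 to EIF4A2, with the limit on EIF4A1 above, was -4.25 and -4.62 against -2.99 and -2.90. For EIF1 to EIF1B it was 4.65 and 4.48 against 3.76 and 3.71. The mean differences in log2 ratio were -1.53, 0.99, -1.49 and 0.83 for these pairs, 0.47 for EIF4E to EIF4E2 and 0.37 for PABPC1 to PABPC4. None of the 6 ratios overlapped between the groups. By the level of single genes, 79.6% of all tested genes and 6005 of 6790 genes of at least 20 CPM did not overlap either. Ratios of other gene pairs were not examined. Each of the 6 ratios gave p = 0.333 in a two-sided exact permutation test over the 4 libraries, also after Benjamini-Hochberg adjustment. That is the smallest p that 2 libraries against 2 can reach.

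**Figure D4:**
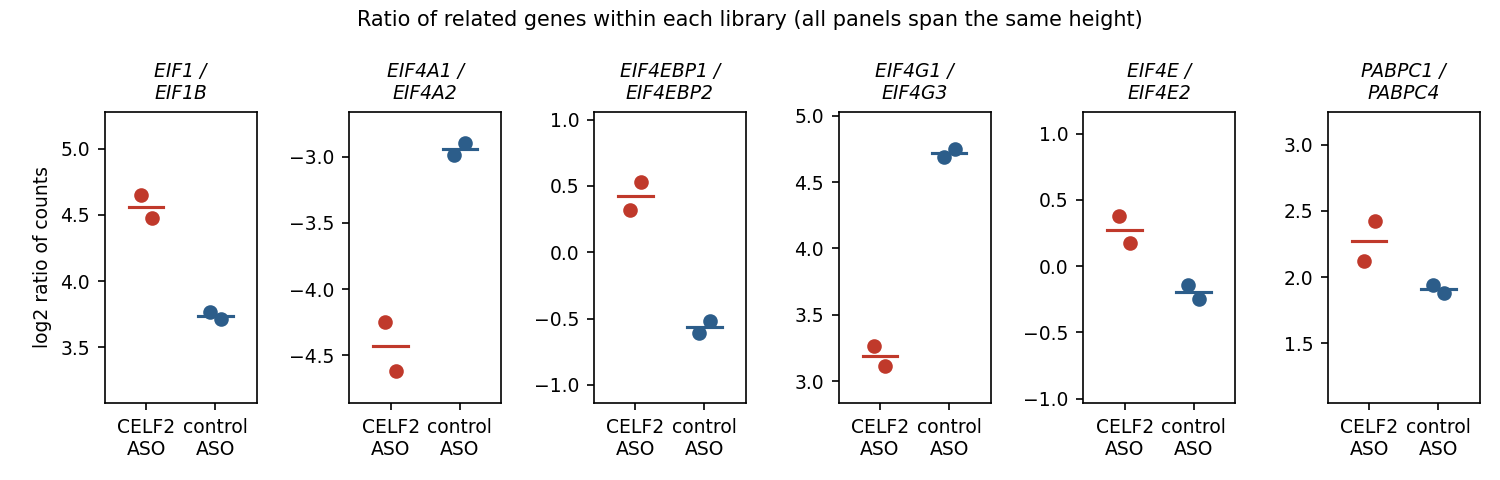
Log2 ratio of counts of 2 related genes within each library, with a point per library and a line at the mean of each group. The ratios of EIF4G1 to EIF4G3 and of EIF4A1 to EIF4A2 are lower with the CELF2 ASO than with the control, and the other 4 are higher.

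The factors that rose were often those whose mRNAs begin with a pyrimidine tract. Of 14 factors listed as known TOP mRNAs, 13 were tested, 8 rose, 2 fell and 3 were not called, and their median was 0.33 on the log2 scale. Of the 35 factors not on that list, 6 rose, 27 fell and 2 were not called, with a median of -0.62. As shares, 61.5% of the tested TOP factors were higher and 15.4% lower, against 17.1% and 77.1% of the factors not listed. Over all tested genes these shares were 27.6% and 28.0%, and over genes of at least 20 CPM 24.5% and 48.0%. The 2 TOP factors that fell were EEF1D and EIF3G. With either control library left out in turn, 4 TOP factors rose and the TOP median stayed between 0.27 and 0.32. The list was made from general knowledge, while earlier results on these data were known, and the counts are a description without a test.

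The first bases of the annotated transcripts were then read from RefSeq promoter sequences on GRCh38.p14. Of the 49 symbols, 39 had an entry. The feature counted was a C as the first transcribed base followed by at least 4 pyrimidines, read on the transcript's strand only and at any annotated start of the gene. The windows run from 10 bases before to 20 bases from the annotated start, with the C and its pyrimidine run in capitals. They were chosen to show 7 of the risers with the feature, EIF3K as a factor with the feature that fell, and EIF1, EIF4A1 and EIF3B as factors without it.
EEF1A1 (chr6:73521013-73521042, minus strand): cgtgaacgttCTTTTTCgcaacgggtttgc
EEF2 (chr19:3985444-3985473, minus strand): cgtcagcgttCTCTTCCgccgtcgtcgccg
EEF1B2 (chr2:206159885-206159914, plus strand): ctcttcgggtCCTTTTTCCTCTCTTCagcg
EIF2S3 (chrX:24054946-24054975, plus strand): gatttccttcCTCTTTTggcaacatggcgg
EIF4B (chr12:53006446-53006475, plus strand): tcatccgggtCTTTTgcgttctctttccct
EIF3F (chr11:7987327-7987356, plus strand): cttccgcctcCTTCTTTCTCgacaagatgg
EIF4A2 (chr3:186783567-186783596, plus strand): gcgccgctgtCTTTTCagtcgggcgctgag
EIF3K (chr19:38619178-38619207, plus strand): tttccaccacCTCTTCCTgttcccgtcctt
EIF1 (chr17:41688875-41688904, plus strand): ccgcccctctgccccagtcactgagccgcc
EIF4A1 (chr17:7572815-7572844, plus strand): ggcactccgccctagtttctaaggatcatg
EIF3B (chr7:2354817-2354846, plus strand): tcgcacgcacatggctgggctgtagccgtc

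A tract of this kind stood at an annotated start of 11 of the 39 factors (28.2%), against 1404 of 27305 genes with an entry (5.14%). Of these 11 factors 8 rose and 3 fell, and their median was 0.41 on the log2 scale. The 8 were EEF1A1, EEF2, EEF1B2, EIF2S3, EIF2A, EIF3F, EIF4A2 and EIF4B, and the 3 were EIF3K, EIF3D and EIF3M. Of 27 tested factors without the tract, 2 rose, EIF1 and EIF4G3, and 23 fell, with a median of -0.73. Of the 10 factors with no entry, which this split leaves out, 4 rose, 3 fell and 3 were not called. They include every tested TOP factor that did not rise, EEF1D, EIF3G, EIF3A, EIF3E and PABPC1. The TOP factors EIF3H and EIF3L, which rose, had no entry either. The split by start is therefore not a separate check of the TOP list. With either control library left out in turn, 4 of the 11 rose and 1 fell, with medians of 0.38 and 0.39. The split by start was made after the values were seen. Outside the factors and the ribosomal protein genes, genes of at least 20 CPM with such a start had a median of -0.21, with 24.1% higher and 47.9% lower over 399 genes. Genes of that level without it had a median of -0.24, with 23.9% higher and 49.6% lower over 5032 genes. Those medians lie closer together than the medians of the factors, and the contrast between them was not tested. Over all levels, 271 of 815 tested genes with such a start were higher and 246 lower. Without the factors and the ribosomal protein genes, 242 of 755 were higher and 240 lower. The genes left out thus leaned higher, the ribosomal protein genes as well as the factors. The tilt is therefore not shown to be particular to the factors. Annotated starts may differ from those used in these cells, which these counts do not show.

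**Figure D5:**
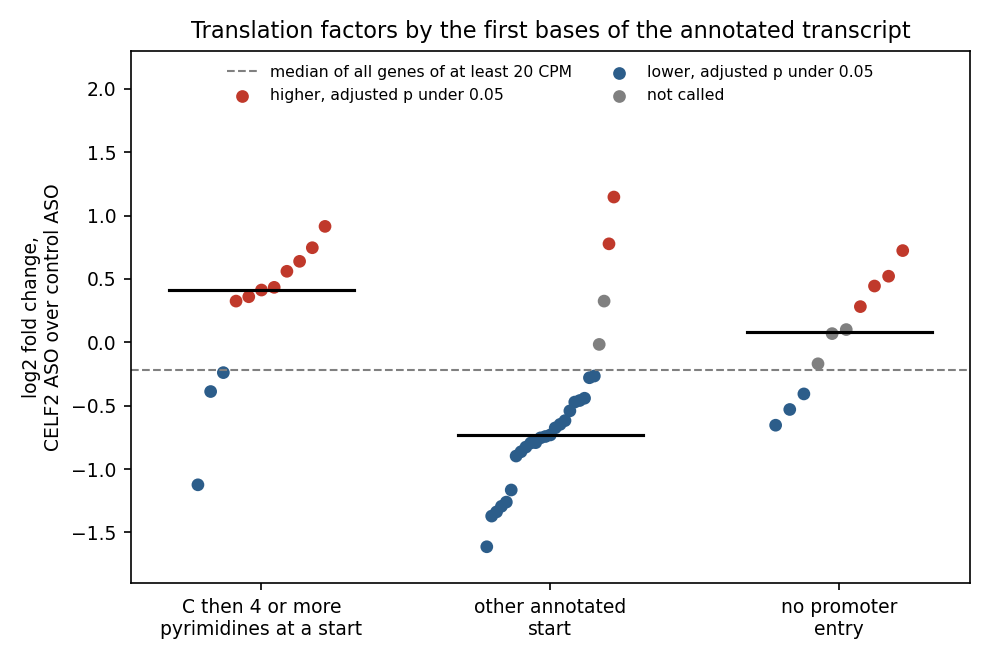
Log2 fold change of the tested translation factors by whether an annotated transcript start has a C followed by at least 4 pyrimidines, with a line at each median. The medians are 0.41 with the tract, -0.73 without it and 0.08 for the 10 factors with no promoter entry, and the dashed line is the median of all genes of at least 20 CPM.

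Promoters of the factors were also searched, over 250 bases before and 50 after the annotated start and on both strands, for TGATGCAA, a core of the composite site bound by ATF4 and C/EBP proteins. No factor with an entry held it, against 0.866% of all promoters. With the fourth base left free (TGANGCAA), EIF4B held it, against 3.22% of all promoters. Those shares are over promoters, of which a gene may have several, and the matches among the 39 factors lie near them. The 10 factors without an entry were not searched, among them EIF4EBP1, named above as a known target of ATF4. A match describes letters in a window and is not a binding site, and a missing match says nothing of the factor. Length and base composition of the principal transcript varied with the fold change only loosely. Spearman's rho of the log2 fold change was 0.12 with length and -0.28 with GC content over the 48 factors, beside 0.16 and -0.23 over 12737 tested genes. These correlations are across genes, which share the same 4 libraries. The median GC content was 46.4% for the 14 factors that rose and 51.2% for the 29 that fell.

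Of 65 other listed genes of the translation pathway 63 were tested, and 9 rose, 31 fell and 23 were not called. The share that passed was 63.5%, beside 55.6% of all tested genes, 63.3% of protein-coding genes and 72.5% of genes of at least 20 CPM. The shares by direction were 14.3% higher and 49.2% lower, and the share lower was near the 48.0% of genes of at least 20 CPM, a level that 45 of the 63 reach. Of 17 other initiation genes, 3 rose and 9 fell. PDCD4, an inhibitor of eIF4A, had 238 and 243 CPM with the CELF2 ASO, against 49.3 and 51.1 CPM with the control, and rose by 2.26 on the log2 scale (edgeR adjusted p = 4.66e-06). EIF4E3, an atypical cap-binding protein gene, rose by 2.11 and PAIP2B, an inhibitor of poly(A)-binding protein, by 0.94 (edgeR adjusted p = 1.31e-05 and 8.49e-05). All 3 were higher in both CELF2 ASO libraries.

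Among 13 genes of elongation and of the modifications of eEF2 and eIF5A, 1 rose and 7 fell. The riser was EEF1A2, an isoform gene of eEF1A typical of muscle and neurons, with 101 and 94.3 CPM with the CELF2 ASO and 36.0 and 35.9 CPM with the control. DPH2, of diphthamide synthesis on eEF2, fell by 1.83 and EEF2KMT, an eEF2 methyltransferase gene, by 1.41 on the log2 scale (edgeR adjusted p = 1.6e-05 and 4e-05). Of 12 genes of termination, recycling and ribosome rescue, 4 rose and 4 fell. GTPBP2, a GTPase known from mouse to act with Pelota on stalled ribosomes, had 295 and 384 CPM with the CELF2 ASO, against 40.1 and 37.2 CPM with the control, a log2 difference of 3.14 ± 0.13 (edgeR adjusted p = 8.36e-06). LTN1, a ligase of ribosome quality control, rose by 0.54 and ABCE1, the recycling factor, fell by 0.70 (edgeR adjusted p = 0.000652 and 0.000206).

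Of 10 genes of mTORC1 and its S6 kinases, 1 rose and 4 fell. DDIT4, whose protein REDD1 restrains mTORC1, had 236 and 252 CPM with the CELF2 ASO, against 46.4 and 49.6 CPM with the control. AKT1S1, which encodes the mTORC1 component PRAS40, and the kinase gene RPS6KB2 fell by 1.22 and 0.85 on the log2 scale. DDIT4 rose by 2.34 (edgeR adjusted p = 4.79e-06), and the falls of the other two had edgeR adjusted p = 6.12e-05 and 0.00011. MTOR itself was not called (log2 fold change 0.12, edgeR adjusted p = 0.254) and passed without CELF2_LNA_ASO replicate 2 (adjusted p from 0.000556 to 0.77 over 11 alternatives). Of 11 mitochondrial translation factor genes 0 rose and 7 fell, among them MTFMT and GFM1 with log2 fold changes of -1.05 and -0.50 (edgeR adjusted p = 0.000317 and 0.00149). TUFM, the mitochondrial counterpart of eEF1A, had 503 and 452 CPM with the CELF2 ASO and 1007 and 1024 CPM with the control, so it fell where EEF1A1 rose (log2 fold change -1.09 ± 0.08, edgeR adjusted p = 4.04e-05).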

How the data were processed

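The deposited table holds raw, whole-number read counts per gene for 4 libraries of RPMI 8226 cells (RPMI82266 in the sample labels). The submitters' processing notes name the GRCh38 build, STAR 2.7.11b, featureCounts 2.0.8 with Subread, Salmon 1.10.0 and bcl2fastq. No source used here gives the annotation release, the strand setting or how shared reads were counted, so reads of genes that overlap on either strand cannot be told apart. The labels name no batch. The labels name both poly(A) selection and ribosomal RNA removal. The 97 rows that were not Ensembl genes, at most 1.03e-05% of a library's counts, were left out. On average over genes, and on raw totals, the spread between libraries exceeded counting error: chi-square divided by its degrees of freedom came to 18.5 for the CELF2 ASO pair and 3.38 for the control pair. Genes with many counts weigh most in this average, so it does not describe genes with few counts.

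The quasi-likelihood test of edgeR 4.0.16 (R 4.3.3, two-sided, robust, group as the only term) was run after filterByExpr (minimum count 10, minimum total 15) and TMM scaling. Benjamini-Hochberg adjustment covered all 19511 tested genes, with a threshold of 0.05. Standard errors are the absolute log2 fold change over the square root of F. Alternatives were RLE scaling, library totals alone, no filter, 1 CPM in 2 libraries, DESeq2 1.42.0, limma-voom (limma 3.58.1), a replicate block and each library left out. The fit was tested on simulated data. Transcript lengths and exon overlaps came from GENCODE 29, taking the principal transcript of best support, and start sequences from RefSeq (GRCh38.p14). The factors, gene lists and tests were chosen with earlier results of these data known. Within a role group, up to 3 called genes of largest change were given in full, with pairs of related genes. Of each other list, up to 3 called genes of smallest adjusted p were named. EIF2S1, MTOR and EIF3CL were named, and the genes of at least 20 CPM taken as a second background, after values were seen.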

Additional observations from a re-analysis of the deposited data

How the results depend on the processing

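Of 528 values of the 48 factors under 11 alternatives, 489 kept their direction and side of the threshold, 28 lost a call, 9 gained one and 2 changed sign. The sign changes were those of EEF2K, at 0.10 with library totals alone and 0.0353 with the 1 CPM filter, and it was not called in either. With all 4 libraries kept, 40 of 48 factors held under every alternative. With one library left out, the number of factors higher ranged from 8 to 16 and of all genes higher from 3564 to 6214, the lowest without control_LNA_ASO replicate 1. These fits take their spread from 1 pair alone, assume that the lone library varies like that pair, and test fewer libraries. Library totals alone raised the median of all genes by 0.12 on the log2 scale, and 16 factors were then higher and 26 lower. With the replicate number as a block, 15 factors were higher and 28 lower, the changed calls being those of EIF1B and EIF3M, and same-numbered libraries deviated with r = 0.034, so the numbers were not taken as pairs. By counting error alone the 0 counts of EEF1G allow up to 0.107 to 0.128 CPM per library, but how reads shared with its overlapping gene were counted is not given, so this is no limit on its abundance.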
